A study of Homo sapiens with 17 samples.

Results

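The genes considered are 10 subunit genes of cohesin and condensin, taken from the count files by gene symbol. The cohesin genes are SMC1A, SMC3, RAD21, STAG1 and STAG2, and the condensin genes are SMC2, SMC4, NCAPD2, NCAPG and NCAPH. All 10 were among the 41040 named genes of the files and all 10 had enough counts to be tested. RNA was sequenced from IMR-90, a human lung fibroblast line, in etoposide-treated cells at week 1 (n = 6 libraries) and week 4 (n = 6) and in untreated cells at week 0 (n = 5). The treated cells had a 48-h exposure to 20 µM etoposide, a topoisomerase II poison that leaves DNA double-strand breaks, and then stayed in culture without it, a treatment given to induce senescence, a lasting arrest of division. All groups came from the same line grown in the same medium. Untreated cells were collected at week 0 only, so treatment and time in culture cannot be told apart. The labels do not say whether libraries of a group came from separate cultures, so the p-values here speak only for the variation among libraries, part of which may be technical.

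Cohesin and condensin are ring-shaped complexes built on a pair of SMC ATPases that fold back on themselves and are closed by a kleisin subunit. Cohesin (SMC1A and SMC3, the kleisin RAD21, and STAG1 or STAG2) holds sister chromatids together from S phase to anaphase and extrudes chromatin loops in interphase, so non-dividing cells use it too. Condensin (SMC2 and SMC4) compacts chromosomes for mitosis. Its condensin I form carries the kleisin NCAPH with NCAPD2 and NCAPG, and its condensin II form carries NCAPH2 with NCAPD3 and NCAPG2.

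The libraries held 77.2 to 102.8 M counts for named genes, and the lowest count of any of the 10 subunit genes in any library was 332, for NCAPH at week 1. The summed level of 10 fibroblast markers was 30510 to 36760 CPM (counts scaled to library size) in week 0 libraries, 43880 to 46890 CPM in week 1 libraries and 58920 to 62000 CPM in week 4 libraries. COL1A1 and COL1A2 carried most of that sum, and of the 10 markers 4 were called higher and 4 lower at week 1, and 7 higher and 1 lower at week 4, each against week 0. Of all tested genes 32.9% were called higher and 34.0% lower at week 1, and 33.9% higher and 33.7% lower at week 4. Markers of leukocytes stayed under 1 CPM in sum, with CD3E at 0 in week 0 and week 4. Among epithelial markers the sum was 63.1 to 71.1, 246 to 286 and 207 to 231 CPM at weeks 0, 1 and 4. The keratin genes KRT18, KRT8 and KRT19 carried most of it, with KRT18 at means of 45.8, 192 and 154 CPM. EPCAM and CDH1 had means under 1 CPM at each time, and CLDN4 had means of 4.79, 3.37 and 4.70 CPM. Smooth muscle markers summed to 713 to 803, 896 to 998 and 788 to 903 CPM at weeks 0, 1 and 4. ACTG2 carried most of that (means of 615, 721 and 699 CPM), and MYH11 stayed under 1 CPM. Endothelial markers summed to 75.8 to 93.5, 59.8 to 64.2 and 54.6 to 81.6 CPM, most of it TEK, and 3 of the 5 had means under 1 CPM at each time. Week 0 replicates 1 and 4 stood apart, with 5.97% and 5.2% of counts in ribosomal protein genes against 3.18% to 3.94% in the other 15 libraries. A list of 8 markers of dividing cells, MKI67 among them, summed to 1345 to 1640 CPM at week 0, 190 to 203 CPM at week 1 and 194 to 252 CPM at week 4, and all 8 were called lower at both treated times. The part of these markers in the values given here was not tested, and in bulk RNA fewer cells of a kind and less RNA per cell cannot be told apart.

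Levels are CPM on library sizes scaled by the TMM method, and changes are log2 fold changes with their standard error (SE) from edgeR's quasi-likelihood test, called at a Benjamini-Hochberg adjusted p under 0.05 over 16891 tested genes. At week 1 all 10 subunit genes were called lower than at week 0, against 34.0% of all tested genes called lower. The 5 condensin genes had log2 fold changes of -3.57 to -1.58 (median -3.02) and the 5 cohesin genes of -1.50 to -0.25 (median -1.03), while the median over all tested genes was -0.02. At week 4 the fall was called for 9 of the 10, against 33.7% of all tested genes. The exception was STAG2. The libraries of week 1 and week 0 did not overlap for 9 of the 10 genes, against 48.7% of all tested genes, and those of week 4 and week 0 for 9 of 10, against 49.0%.

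**Figure D1:**
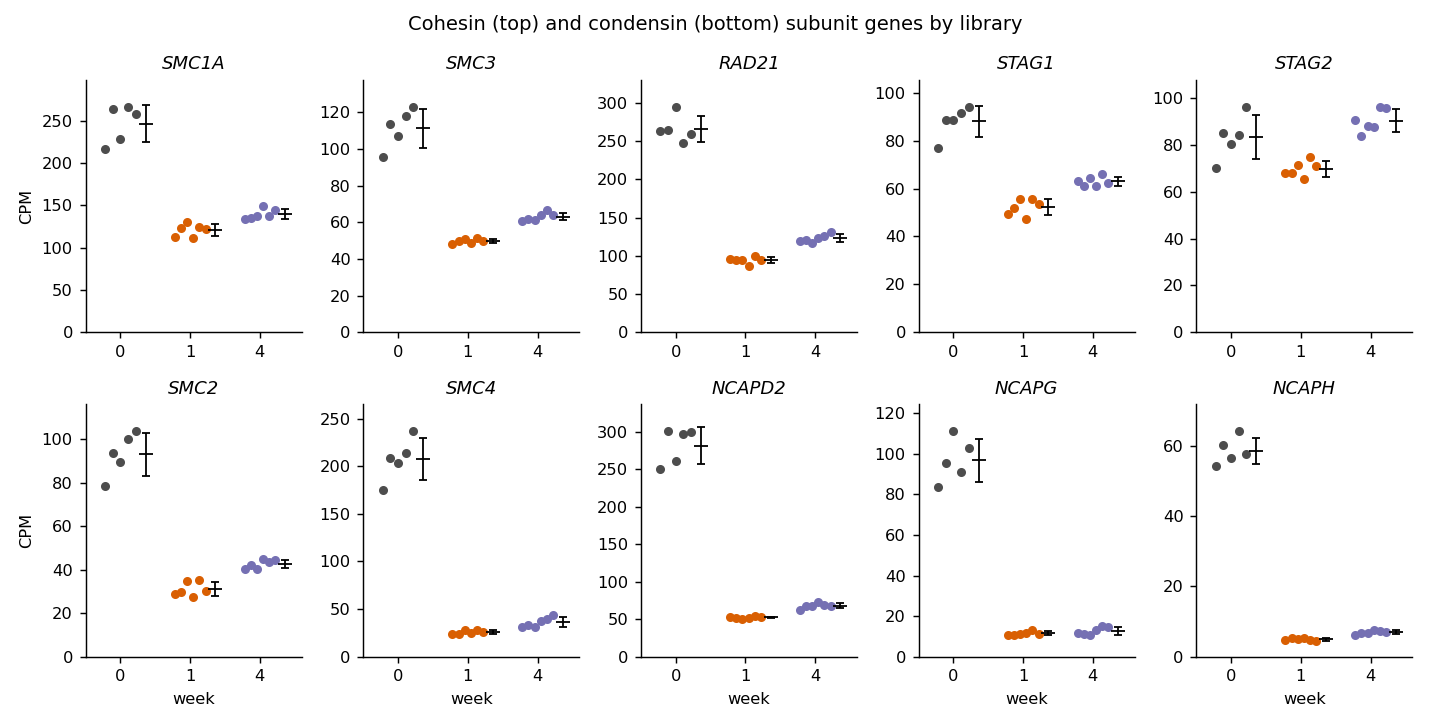
CPM of each subunit gene (y axis, from 0) in every library at weeks 0, 1 and 4 (x axis), with cohesin genes in the top row and condensin genes in the bottom row. Each point is a library, and the bar to its right is the mean ± SD (n = 5, 6 and 6). The treated libraries lie below all week 0 libraries for every gene except STAG2.

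Among the condensin genes the kleisin NCAPH fell most. Its level was 54.1, 60.2, 56.6, 64.0 and 57.6 CPM in the 5 week 0 libraries (replicates 1, 3, 4, 5 and 6), with a lowest, median and highest value of 4.44, 4.88 and 5.44 CPM at week 1 and 6.14, 6.90 and 7.69 CPM at week 4. The 3 groups did not overlap. The log2 fold change was -3.57 ± 0.07 SE at week 1, 11.8-fold lower (adjusted p = 8.2e-21), and -3.07 ± 0.07 SE at week 4 (adjusted p = 5.9e-20). At week 1, 0.361% of all tested genes had a lower log2 fold change than NCAPH.

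NCAPG, a HEAT-repeat subunit of condensin I that binds DNA together with the kleisin, was at 83.7, 95.7, 111.0, 91.0 and 102.8 CPM in the week 0 libraries. The lowest, median and highest values were 10.9, 11.1 and 13.4 CPM at week 1 and 10.7, 12.4 and 15.1 CPM at week 4. Both treated groups lay well below week 0 and overlapped each other. Its log2 fold change was -3.07 ± 0.09 SE at week 1 (adjusted p = 7.6e-18) and -2.92 ± 0.09 SE at week 4 (adjusted p = 1.9e-17). NCAPD2, the other HEAT-repeat subunit, stood at 50.7 to 54.6 CPM at week 1 and 63.0 to 73.4 CPM at week 4, against 249.9 to 300.7 CPM at week 0. That is 5.37-fold lower at week 1 (log2 fold change -2.42 ± 0.05 SE, adjusted p = 3.8e-20) and 4.13-fold lower at week 4 (-2.05 ± 0.05 SE, adjusted p = 5.4e-19).

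The ATPase genes SMC2 and SMC4, whose products pair in both condensins, moved by unequal amounts. SMC4 was at 175.0, 208.1, 203.7, 213.9 and 236.5 CPM in the week 0 libraries, at 23.4, 25.4 and 28.2 CPM (lowest, median and highest) at week 1 and at 31.7, 35.7 and 43.6 CPM at week 4. SMC2 was at 78.3, 93.6, 89.6, 100.2 and 103.6 CPM in the week 0 libraries, at 27.7, 30.0 and 35.3 CPM at week 1 and at 40.1, 42.9 and 44.9 CPM at week 4. For both genes the 3 groups were apart with no overlap, in the order week 1, week 4, week 0 from low to high. SMC4 fell 8.09-fold at week 1 (log2 fold change -3.02 ± 0.09 SE, adjusted p = 3.4e-18) and SMC2 fell 2.99-fold (-1.58 ± 0.07 SE, adjusted p = 8.4e-15). At week 4 the log2 fold changes were -2.51 ± 0.08 SE for SMC4 (adjusted p = 6.3e-17) and -1.13 ± 0.07 SE for SMC2 (adjusted p = 3.5e-12).

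**Figure D2:**
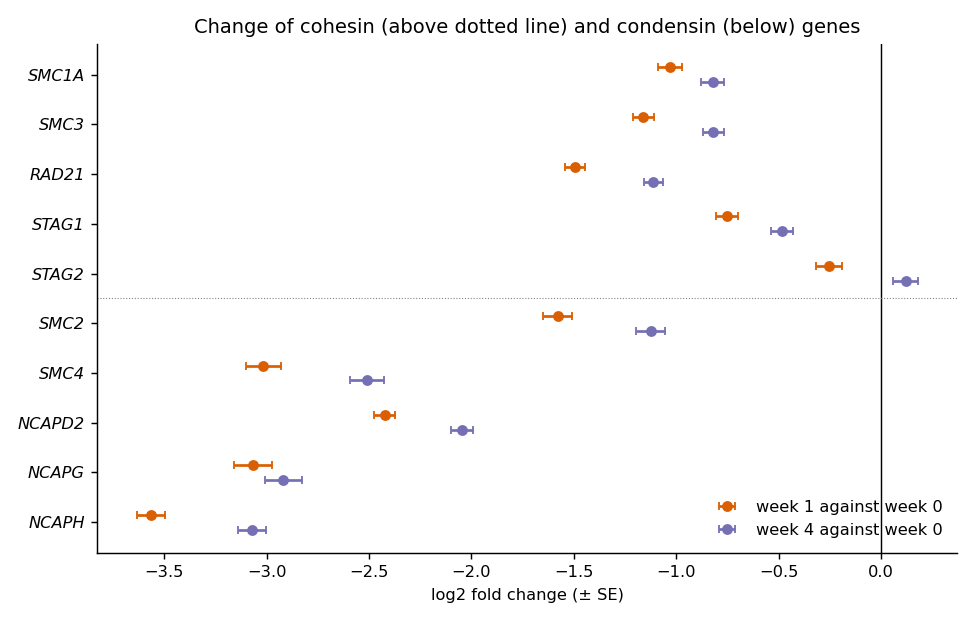
Log2 fold change (x axis) of each subunit gene at week 1 and at week 4 against the same week 0 libraries. Points are edgeR estimates with bars of ± 1 SE, cohesin genes above the dotted line and condensin genes below it. NCAPH lies farthest left at both times, and STAG2 is the gene nearest 0.

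The 5 condensin genes were all called lower at both treated times, though by unequal amounts. Their promoter windows (250 bases before to 50 after a RefSeq start, build GRCh38.p14) were read for short letter strings known from promoters of cell cycle genes. Capitals mark TTTGAA or TTTAAA, the letters of the cell cycle genes homology region, and CCAAT, each on either strand (TTCAAA and ATTGG are TTTGAA and CCAAT on the other strand). The windows shown are those of the condensin genes that hold TTTGAA or TTTAAA. Beside them is the first of 3 windows of STAG2, which changed least.
SMC2 (chr9:104094059-104094358, plus strand): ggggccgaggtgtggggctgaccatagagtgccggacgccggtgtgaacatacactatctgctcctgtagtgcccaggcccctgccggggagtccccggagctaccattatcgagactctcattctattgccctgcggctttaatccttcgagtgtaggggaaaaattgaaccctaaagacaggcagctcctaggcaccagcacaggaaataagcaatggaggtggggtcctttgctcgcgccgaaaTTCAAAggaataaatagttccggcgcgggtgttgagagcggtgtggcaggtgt
SMC4 (chr3:160399400-160399699, plus strand): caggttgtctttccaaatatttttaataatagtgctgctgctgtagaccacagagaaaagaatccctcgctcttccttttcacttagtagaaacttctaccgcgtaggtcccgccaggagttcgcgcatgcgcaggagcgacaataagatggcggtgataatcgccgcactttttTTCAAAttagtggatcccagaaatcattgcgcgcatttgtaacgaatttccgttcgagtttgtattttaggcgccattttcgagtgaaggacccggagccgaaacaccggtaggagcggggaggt
NCAPD2 (chr12:6493852-6494151, plus strand): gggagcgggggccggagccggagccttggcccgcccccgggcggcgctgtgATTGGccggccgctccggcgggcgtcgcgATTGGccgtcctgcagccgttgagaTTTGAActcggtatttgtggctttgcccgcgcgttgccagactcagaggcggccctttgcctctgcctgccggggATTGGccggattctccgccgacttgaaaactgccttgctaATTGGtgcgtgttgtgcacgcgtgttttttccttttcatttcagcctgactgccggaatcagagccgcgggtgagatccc
NCAPG (chr4:17810729-17811028, plus strand): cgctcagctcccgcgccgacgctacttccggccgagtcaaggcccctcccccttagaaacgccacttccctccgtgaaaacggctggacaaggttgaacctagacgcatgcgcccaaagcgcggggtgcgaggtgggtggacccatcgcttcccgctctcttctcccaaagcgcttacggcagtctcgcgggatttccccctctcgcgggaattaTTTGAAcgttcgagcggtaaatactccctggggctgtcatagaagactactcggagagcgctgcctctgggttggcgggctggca
NCAPH (chr2:96335516-96335815, plus strand): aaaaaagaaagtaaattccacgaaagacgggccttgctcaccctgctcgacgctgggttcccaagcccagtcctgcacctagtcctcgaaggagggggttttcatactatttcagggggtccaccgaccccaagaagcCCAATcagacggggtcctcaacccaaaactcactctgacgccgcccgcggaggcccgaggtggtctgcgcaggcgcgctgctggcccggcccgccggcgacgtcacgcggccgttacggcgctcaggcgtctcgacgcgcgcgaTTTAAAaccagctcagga
STAG2 (chrX:123960310-123960609, plus strand): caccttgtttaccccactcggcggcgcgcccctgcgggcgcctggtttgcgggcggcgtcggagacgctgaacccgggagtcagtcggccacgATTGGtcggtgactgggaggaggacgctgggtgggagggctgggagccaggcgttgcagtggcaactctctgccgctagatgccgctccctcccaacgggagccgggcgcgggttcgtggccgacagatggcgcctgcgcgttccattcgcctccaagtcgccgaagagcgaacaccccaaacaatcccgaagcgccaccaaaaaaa

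TTTGAA or TTTAAA was found in a window of all 5 condensin genes and of 1 of the 4 cohesin genes with a window (SMC3), against 27.85% of 27305 genes with such windows. Counted by window, it was in 6 of 14 windows of the subunit genes and in 23.99% of 35116 windows in the table. The match began at position -35 from the start in NCAPG, -75 in SMC4, -3 in SMC2, -145 in NCAPD2 and 32 in NCAPH. CCAAT was found for STAG1, STAG2, NCAPD2 and NCAPH, 4 of 9 genes, against 39.72% of all genes, and NCAPD2 held 4 matches. TTTNNCGC, letters like those of an E2F site, was found on either strand for SMC1A, STAG1, STAG2 and NCAPG, against 8.23% of genes. For STAG2 it was in windows 2 and 3, which are not shown. GGGCGG was in windows of 7 of the 9 genes, against 48.3%. Genes with several windows have more chances of a match, and a match is a string of letters, not a measured binding site.

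The cohesin genes fell by less. RAD21, the kleisin, was at 263.6, 264.1, 295.1, 248.2 and 259.7 CPM in the 5 week 0 libraries. Its lowest, median and highest values were 86.5, 94.7 and 99.9 CPM at week 1 and 117, 122 and 131 CPM at week 4, with no overlap among the 3 groups. It was 2.82-fold lower at week 1 (log2 fold change -1.50 ± 0.05 SE, adjusted p = 2.2e-17) and 2.16-fold lower at week 4 (-1.11 ± 0.05 SE, adjusted p = 4.2e-15). Of the 9 other subunit genes SMC2 was the nearest to RAD21 in the plane of both log2 fold changes, at a distance of 0.085.

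SMC1A and SMC3, the ATPase pair of cohesin, both fell at each treated time. SMC1A ranged over 111 to 130 CPM at week 1 and 134 to 149 CPM at week 4, against 217 to 266 CPM at week 0, and SMC3 was at 48.1 to 51.6 CPM and 60.8 to 66.4 CPM, against 95.3 to 123 CPM at week 0. Neither gene had an overlap between a treated group and week 0. The log2 fold changes at week 1 were -1.03 ± 0.06 SE for SMC1A (adjusted p = 2.6e-13) and -1.16 ± 0.05 SE for SMC3 (adjusted p = 8.5e-15), and at week 4 they were -0.82 for both genes.

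STAG1 and STAG2 encode HEAT-repeat subunits that take the same place in alternative forms of cohesin. STAG1 was at 77.1, 88.8, 88.8, 91.8 and 94.2 CPM in the week 0 libraries, at 47.4, 52.8 and 55.7 CPM (lowest, median and highest) at week 1 and at 60.9, 62.8 and 66.0 CPM at week 4. It was 1.69-fold lower at week 1 (log2 fold change -0.75 ± 0.05 SE, adjusted p = 2.5e-11) and 1.4-fold lower at week 4 (-0.48 ± 0.05 SE, adjusted p = 4.5e-08). STAG2 was at 70.1, 85.4, 80.6, 84.2 and 96.4 CPM in the week 0 libraries, at 65.3, 69.6 and 74.8 CPM at week 1 and at 84.0, 89.5 and 96.4 CPM at week 4. Both treated groups overlapped week 0 for STAG2 and neither did for STAG1.

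STAG2 was called lower at week 1, by 1.19-fold (log2 fold change -0.25 ± 0.06 SE, adjusted p = 9.5e-04), and was not called at week 4 (0.12 ± 0.06 SE, adjusted p = 0.093). Its direction at week 4 turned on the processing: 0.19 with upper-quartile scaling (adjusted p = 0.0078), -0.13 after a correction for gene length (adjusted p = 0.013) and 0.03 without week 0 replicates 1 and 4 (adjusted p = 0.66). In the 13 libraries whose files hold no gene length, the week 1 value was -0.16 (adjusted p = 0.0501, just above the threshold). The only week 0 libraries among these 13 are replicates 1, 3 and 4, and replicates 1 and 4 are those that stood apart. Without week 0 replicates 1 and 4 the week 1 value was -0.35 (adjusted p = 2.0e-06). After a correction for gene length it was -0.39 (adjusted p = 7.2e-08).

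Whether partner or paralogous subunits changed by different amounts was tested on the log2 ratio of the 2 genes within each library, which does not depend on scaling. For 6 pairs in 3 comparisons, exact two-sided permutation tests were adjusted together over the 18 tests. The smallest exact p these group sizes allow is 0.0022. Shares below are of the pair's summed CPM per kilobase of gene length, as mean ± SD (n = 6 at week 1, 6 at week 4 and 5 at week 0).

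SMC2 took 60.5 ± 1.27% of the SMC2 and SMC4 sum at week 1 and 59.8 ± 2.20% at week 4, against 36.2 ± 0.613% at week 0. The log2 ratio was higher than at week 0 by 1.43 at week 1 and 1.39 at week 4 (adjusted exact p = 0.0039 for both), and weeks 4 and 1 were not told apart (-0.04, adjusted exact p = 0.62). All 12 treated libraries had a higher SMC2 share than any week 0 library. The ratio of the cohesin ATPases moved by less. SMC1A took 77.6 ± 0.714% of its sum with SMC3 at week 1 and 76.0 ± 0.749% at week 4, against 76.0 ± 0.814% at week 0. The log2 ratio at week 1 was higher by 0.13 (adjusted exact p = 0.012), or by 0.11 in the 13 libraries without gene length (adjusted exact p = 0.10), at week 4 the difference from week 0 was -0.003 (adjusted exact p = 0.93), and week 4 was lower than week 1 by a log2 difference of -0.13 (adjusted exact p = 0.0065).

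The STAG1 share of the STAG pair was 60.4 ± 0.693% at week 1 and 58.7 ± 1.05% at week 4, against 68.4 ± 1.11% at week 0. The STAG1 to STAG2 ratio was thus lower by log2 differences of -0.50 and -0.61 (adjusted exact p = 0.0039 for both). After a correction for gene length the differences were -0.40 and -0.42 (adjusted exact p = 0.0043). The further step of -0.10 at week 4 against week 1 (adjusted exact p = 0.017) was not called after that correction (-0.02, adjusted exact p = 0.56).

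Condensin I genes fell by more than their condensin II paralogs in all 3 pairs. NCAPH took 12.1 ± 0.962% of its sum with NCAPH2 at week 1 and 13.9 ± 1.22% at week 4, against 38.2 ± 0.823% at week 0, and the log2 ratio was lower by differences of -2.17 and -1.94. NCAPG took 50.8 ± 1.36% and 46.2 ± 2.59% of its sum with NCAPG2 at weeks 1 and 4, against 56.7 ± 3.14% at week 0 (log2 differences of -0.34 and -0.61). NCAPD2 took 86.8 ± 0.497% and 86.9 ± 0.555% of its sum with NCAPD3, against 90.1 ± 0.370% at week 0 (log2 differences of -0.47 and -0.45). All 6 differences had an adjusted exact p of 0.0039, the smallest reached among the 18. After a correction for gene length the NCAPD2 to NCAPD3 differences were smaller, at -0.34 and -0.20 (adjusted exact p = 0.0043 and 0.0078). Those of NCAPH to NCAPH2 were then -2.20 and -2.01, and those of NCAPG to NCAPG2 -0.32 and -0.55 (adjusted exact p = 0.0043 for each). The condensin II genes themselves were also lower: NCAPG2 was at 16.4 ± 1.06 CPM at week 1, against 108 ± 11.1 CPM at week 0, NCAPD3 at 23.1 ± 0.540 CPM against 89.5 ± 7.20 CPM, and NCAPH2 at 24.6 ± 1.54 CPM against 64.3 ± 2.20 CPM. Their log2 fold changes at week 1 were -2.72, -1.96 and -1.39.

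**Figure D3:**
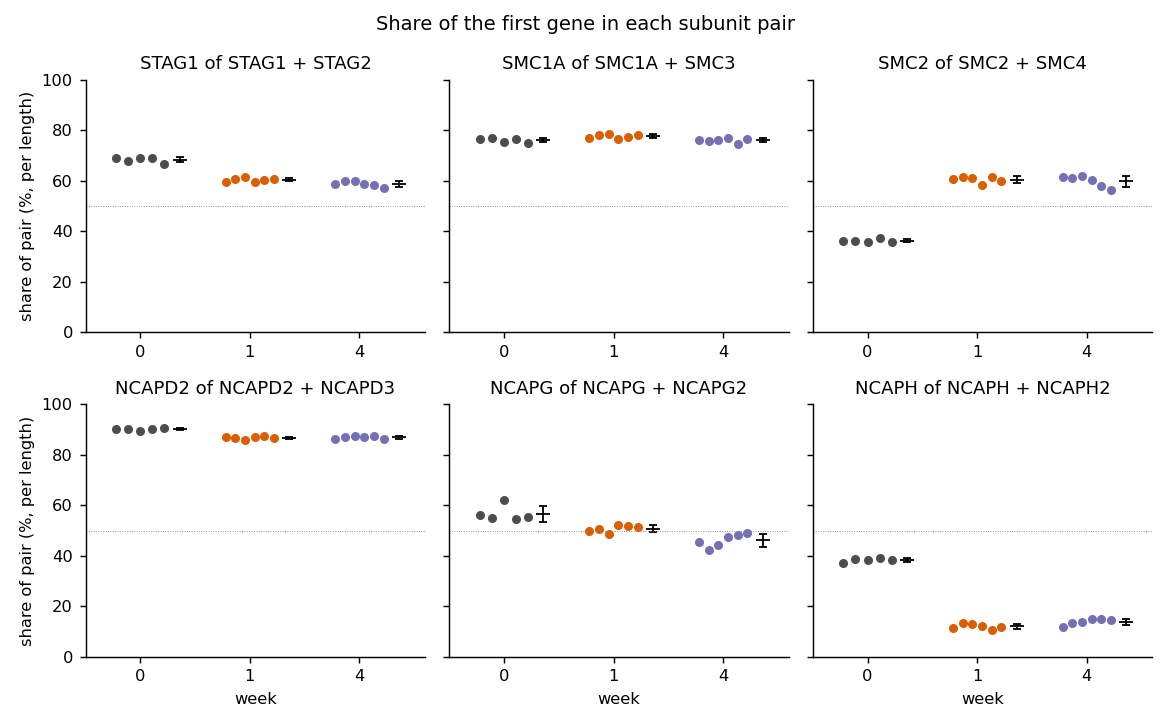
Share of the first-named gene in the summed CPM per kilobase of a pair of subunit genes (y axis, percent, 0 to 100) by library at weeks 0, 1 and 4 (x axis), with mean ± SD beside the points. The SMC2 share lies at 35.6% to 37.1% at week 0, 58.2% to 61.6% at week 1 and 56.2% to 61.7% at week 4, and the NCAPH share at 37.0% to 39.1%, 10.7% to 13.4% and 11.7% to 14.9%.

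Per kilobase of gene length, NCAPD2 had the highest level of the 10 genes at week 0 (43.5 ± 3.77 CPM per kb, SD, n = 5). SMC4 (25.4 ± 2.71), SMC1A (22.8 ± 2.06), NCAPG (20.0 ± 2.17) and RAD21 (18.5 ± 1.21) followed, each within the spread of its neighbour. Below them came SMC2 (14.4 ± 1.53), STAG1 (11.2 ± 0.840), NCAPH (8.94 ± 0.580), SMC3 (7.18 ± 0.689) and STAG2 (5.21 ± 0.592). At week 1 the order (n = 6) was SMC1A (11.1 ± 0.672 CPM per kb), NCAPD2 (8.11 ± 0.196), STAG1 (6.66 ± 0.437) and RAD21 (6.56 ± 0.305), which met within their spread, SMC2 (4.81 ± 0.489) and STAG2 (4.37 ± 0.208), which also met, then SMC3 (3.21 ± 0.084), SMC4 (3.14 ± 0.244), NCAPG (2.39 ± 0.200) and NCAPH (0.755 ± 0.058). SMC3 and SMC4 did not differ beyond their spread there. At week 4 (n = 6) SMC1A was at 12.9 ± 0.546 CPM per kb, NCAPD2 at 10.5 ± 0.513, RAD21 at 8.56 ± 0.348, STAG1 at 8.04 ± 0.253, SMC2 at 6.59 ± 0.312, STAG2 at 5.66 ± 0.303, SMC4 at 4.46 ± 0.591, SMC3 at 4.07 ± 0.136, NCAPG at 2.64 ± 0.387 and NCAPH at 1.06 ± 0.082. RAD21 and STAG1, and SMC4 and SMC3, met within their spread at week 4. The 5 condensin genes summed to 19.2 ± 0.895 CPM per kb at week 1 and 25.3 ± 1.65 at week 4, against 112 ± 8.98 at week 0, and the 5 cohesin genes to 31.9 ± 1.56 and 39.2 ± 1.07, against 64.9 ± 3.61 at week 0. Per kilobase the condensin sum was thus below the cohesin sum in treated cells and above it in untreated cells, while in CPM not divided by length it was below at all times (126 against 387 CPM at week 1, 167 against 479 CPM at week 4 and 737 against 795 CPM at week 0). The lengths come from the deposited files and run from 4.85 kb for NCAPG to 8.16 kb for SMC4 among the condensin genes. Among the cohesin genes they run from 7.84 kb for STAG1 to 16.0 kb for STAG2. They are given per gene and need not be the lengths of the transcripts present in these cells. Orders between genes, the sums per kilobase and the size of the pair shares all rest on them.

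Between the treated times most of the subunit genes were higher at week 4. In that comparison 9 of 10 were called higher than at week 1, against 21.8% of all tested genes called higher, and 0 were called lower, against 18.6%. The log2 fold changes were 0.51 ± 0.08 SE for SMC4 (adjusted p = 2.5e-05), 0.49 ± 0.06 SE for NCAPH (adjusted p = 2.5e-06), 0.45 ± 0.07 SE for SMC2 (adjusted p = 1.3e-05), 0.38 ± 0.05 SE for RAD21 (adjusted p = 6.7e-07) and 0.37 ± 0.06 SE for STAG2 (adjusted p = 2.4e-05). Libraries of weeks 4 and 1 did not overlap for 9 of the 10 genes, against 30.2% of all tested genes. NCAPG was the gene not called (0.15 ± 0.09 SE, adjusted p = 0.19). None of the 10 passed a test against a minimum of 2-fold in this comparison. Of the 8 markers of dividing cells, 4 were called higher, 1 lower (AURKA) and 3 were not called. MKI67, with the largest log2 fold change of the 8 (0.64), had a mean of 66.5 ± 10.1 CPM at week 4 and 42.8 ± 4.62 CPM at week 1.

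Genes that load, regulate or work beside the complexes were listed in 8 groups of 38 genes in all, of which 36 were tested. At week 1, 30 were called lower and 2 higher, against 34.0% and 32.9% of all tested genes. At week 4, 28 were called lower and 2 higher, against 33.7% and 33.9%. The median log2 fold changes were -1.22 and -1.02, against -0.02 and 0.00 over all tested genes. Week 4 against week 1 gave 20 higher and 1 lower, against 21.8% and 18.6% of all tested genes.

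Loading and release factors of cohesin had log2 fold changes of -0.98 to 0.18 at week 1 and -0.57 to 0.16 at week 4. Of 5 genes, 3 were called lower and 1 higher at both treated times. The shares of all tested genes were 34.0% and 32.9% at week 1 and 33.7% and 33.9% at week 4. NIPBL, the loader, was not called at either time (60.9 ± 5.39 CPM at week 1 and 77.6 ± 3.33 CPM at week 4, against 69.6 ± 12.5 CPM at week 0). Without week 0 replicates 1 and 4 it was called lower at week 1 (-0.37, adjusted p = 4.4e-06, against -0.19 and 0.057 with them), and in the 13 libraries without gene length it was called higher at week 4 (0.30, adjusted p = 0.0053). The NIPBL partner MAU2 had log2 fold changes of 0.18 and 0.14 (adjusted p = 0.0097 and 0.034), and neither call held without week 0 replicates 1 and 4. WAPL, which opens the ring, was called lower by -0.18 and -0.17 (adjusted p = 0.023 and 0.027), calls that did not hold in the 13 libraries without gene length (adjusted p = 0.56 and 0.35). PDS5B, which binds the ring and acts in both its release and its protection, fell most in the group, to 23.2 ± 1.70 CPM at week 1, against 45.7 ± 5.55 CPM at week 0.

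PDS5A was called lower by -0.29 and -0.15 (adjusted p = 1.4e-04 and 0.025), and the week 4 call was lost with upper-quartile scaling (-0.08, adjusted p = 0.19), with a file class term, in the 13 libraries without gene length (-0.07, adjusted p = 0.32) and without week 0 replicate 5 or 6 or week 4 replicate 2 (-0.13 to -0.11). At week 4 against week 1, PDS5B and NIPBL were called higher (log2 fold changes of 0.40 and 0.35, adjusted p = 4.8e-05 and 0.0020).

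Cohesion-establishing genes split. The acetyltransferase ESCO2, which marks SMC3 in S phase, fell to 1.76 ± 0.407 CPM at week 1 and 2.62 ± 0.502 CPM at week 4, against 17.5 ± 3.16 CPM at week 0. CDCA5 (sororin), which guards acetylated cohesin, was at 9.52 ± 0.757 and 11.97 ± 1.03 CPM, against 67.3 ± 1.73 CPM at week 0. ESCO1, the acetyltransferase that acts also outside S phase, was called higher at both times, at 13.4 ± 0.647 and 15.3 ± 1.91 CPM, against 11.04 ± 1.59 CPM at week 0 (log2 fold changes of 0.28 and 0.47, adjusted p = 0.011 and 1.3e-04). Both treated groups overlapped week 0 for ESCO1. HDAC8, the SMC3 deacetylase, had -0.41 and -0.22 (adjusted p = 9.6e-05 and 0.018), and the week 4 call was lost with upper-quartile scaling (-0.15, adjusted p = 0.10) and without week 0 replicates 1 and 4 (-0.20, adjusted p = 0.067).

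All 4 genes of cohesin protection and cleavage fell at both times, against 34.0% and 33.7% of all tested genes called lower at weeks 1 and 4. SGO1, the shugoshin that protects centromeric cohesin, averaged 0.881 ± 0.167 CPM at week 1 and 1.16 ± 0.362 CPM at week 4, against 12.5 ± 1.43 CPM at week 0. ESPL1 (separase, which cuts RAD21) was at 7.28 ± 0.869 and 8.51 ± 0.664 CPM, against 47.8 ± 3.74 CPM at week 0, and PTTG1 (securin, its inhibitor) at 16.1 ± 1.22 and 15.5 ± 1.42 CPM, against 123 ± 12.3 CPM. The 6 mitotic kinase genes, which include the CDK1 partner cyclin B1, fell by log2 fold changes of -3.95 to -2.71 at week 1. Among them AURKB, whose kinase promotes condensin I loading, was at 5.13 ± 0.447 CPM at week 1, against 72.4 ± 8.64 CPM at week 0, and PLK1 at 10.8 ± 0.825 CPM, against 166 ± 6.10 CPM.

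Of the chromosome architecture partners, all 6 were called lower at week 1 and 5 at week 4, against 34.0% and 33.7% of all tested genes. TOP2A, the mitotic topoisomerase II that works with condensin and one of the enzymes etoposide traps, fell to 46.4 ± 2.63 CPM at week 1 and 69.2 ± 10.2 CPM at week 4, against 515 ± 32.5 CPM at week 0. TOP2B, the isoform made in dividing and non-dividing cells alike, was at 121.5 ± 4.64 and 167 ± 4.73 CPM, against 161 ± 20.6 CPM, and was called at week 1 only (log2 fold change -0.41, adjusted p = 4.2e-06). At week 4 it was 0.05 (adjusted p = 0.46), and -0.22 after a correction for gene length (adjusted p = 5.9e-05) and 0.16 in the 13 libraries without gene length (adjusted p = 0.029). CTCF, the DNA-binding protein that halts cohesin at loop anchors, was at 29.2 ± 1.23 and 35.4 ± 0.558 CPM, against 60.6 ± 4.30 CPM at week 0. KIF4A, a kinesin that binds condensin, had log2 fold changes of -3.23 and -2.93.

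The SMC5/6 complex, another SMC complex with roles in DNA repair, had 4 of 5 tested genes called lower at week 1 and 3 at week 4. The shares of all tested genes called lower were 34.0% and 33.7%. SMC6 averaged 22.5 ± 1.24 CPM at week 1 and 28.02 ± 1.85 CPM at week 4, against 37.9 ± 3.45 CPM at week 0, and NSMCE4A was at 8.07 ± 0.637 and 8.18 ± 0.258 CPM, against 15.3 ± 1.36 CPM at week 0, while SMC5 was called at week 1 only (log2 fold change -0.26, adjusted p = 3.2e-04). NSMCE1 was the list gene called lower at week 4 against week 1 (-0.20, adjusted p = 0.020), a call lost without week 1 replicate 4 or week 4 replicate 6 (-0.17 in both cases, adjusted p = 0.05004 and 0.052). Germline cohesin genes were scarce, with a summed level of 1.82 to 4.40 CPM over all libraries. STAG3 was called lower at both times, at 0.567 ± 0.217 and 0.743 ± 0.205 CPM, against 1.76 ± 0.361 CPM at week 0, a value that is uncertain because near-identical copies of STAG3 exist.

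**Figure D4:**
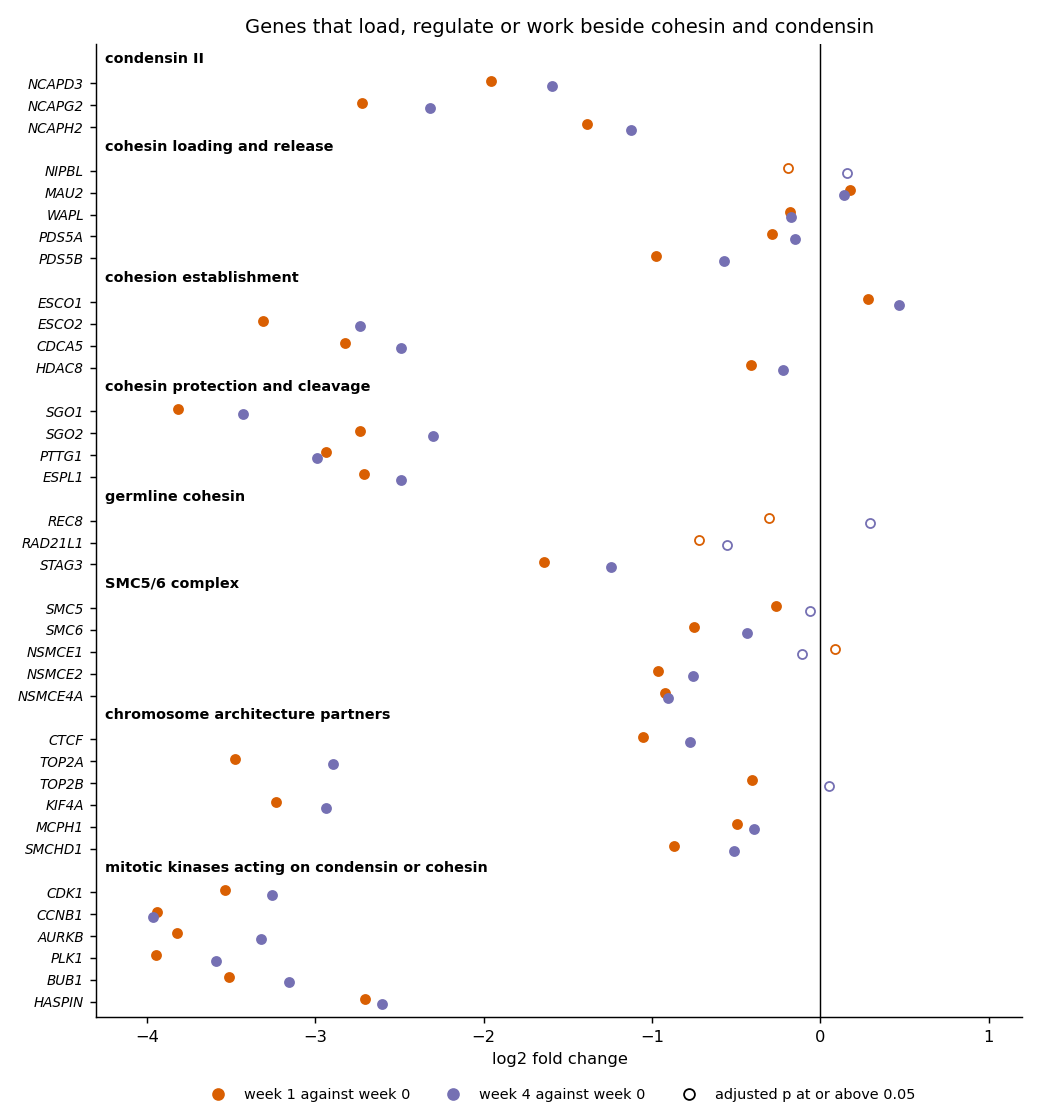
Log2 fold change (x axis) at week 1 and week 4 against the same week 0 libraries for the 36 tested genes of 8 lists (y axis). Filled points passed an adjusted p under 0.05 and open points did not. Mitotic kinases and protection genes lie between -3.96 and -2.30, and loading and release factors between -0.98 and 0.18.

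The genes most like each subunit gene were taken as the 3 with the smallest distance in the plane of the 2 log2 fold changes against week 0, among 10120 others with a mean of at least 5 CPM. For NCAPH they were KIF18B, BUB1 and APOBEC3B (distances of 0.075 to 0.11), for NCAPG they were TACC3, IQGAP3 and RRM2 (0.026 to 0.091), and for SMC4 they were CIT, PKMYT1 and KIF20B (0.019 to 0.032). For NCAPD2 they were RPL39L, TYMS and RFC4 (0.068 to 0.089) and for SMC2 GNB3, PSIP1 and TEAD2 (0.024 to 0.053). The cohesin genes lay nearest SCLT1, PDE7B and SLC25A40 for RAD21, HNRNPM, PPT1 and FOXF1 for SMC3, NTAQ1, RNF138 and PDSS1 for SMC1A, HNRNPA1P10, MSH6 and CRIPT for STAG1, and EML3, ZNF33A and DDI2 for STAG2. Both fold changes share the week 0 libraries, so the distances describe these libraries.

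Several of the 10 genes share exon bases with a gene on the opposite strand in the GENCODE annotation, and the strand setting of the counts is not given in the sources used here. The mean count of MRPL51, which overlaps NCAPD2, was 125% of that of NCAPD2 at week 1 and 89.1% at week 4, against 36.4% at week 0. PCCB, which overlaps STAG1, was at 55.8% and 34.8% of STAG1, against 30% at week 0, and LCORL, which overlaps NCAPG, at 38.2% and 45% of NCAPG, against 11.4%. For SMC4 the neighbours were IFT80 (30.6% and 26.7%, against 5.43%) and TRIM59 (25.1% and 20.5%, against 13.5%), and for RAD21 UTP23 (13.3% and 10.5%, against 5.88%). These neighbours thus had larger counts relative to the subunit gene in treated cells. The subunit gene is the divisor and was itself lower there, so these percentages do not show that a neighbour's own count rose. SMC2, SMC3 and NCAPH have no such neighbour. Reads from the shared bases cannot be assigned here, and the part they have in the values above was not tested.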

How the data were processed

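Bulk RNA-seq of IMR-90 cells was deposited as read counts per gene by the authors, 1 file a library, 17 in all. Per the submitters' processing notes the tools were HISAT2 2.0.5.2 and featureCounts 1.4.6. The build those notes name is a mouse build although the gene symbols are human, so the build is unclear. For the annotation, the strand setting and multi-mapping reads the choice made is not given in the sources used here. In 4 of the 17 files the authors also deposited a gene length, which was used for levels per kilobase. An entry with no gene name held 0.221% to 0.289% of counts and was left out.

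Counts were fitted with edgeR 4.0.16 in R 4.3.3 (filterByExpr, TMM factors of 0.938 to 1.106, glmQLFit and glmQLFTest on all 17 libraries, Benjamini-Hochberg over 16891 genes). The procedure was also run on simulated counts with a common spread for all genes and few changed genes. That setting is simpler than these data, so it does not vouch for the calls here. No 2 libraries of a group were duplicates within counting noise. Log2 ratios within 6 subunit pairs had exact permutation tests, two-sided. DESeq2 1.42.0, limma 3.58.1 (voom), other scalings, filters, gene length correction, a replicate block and leaving out libraries were alternatives. Promoter windows came from RefSeq (GRCh38.p14) for 9 of the 10 genes, RAD21 being the other. Named genes were the 10 subunits, the condensin II genes, MKI67, the 3 nearest genes to each subunit, and in each list up to 2 genes that rose and 2 that fell with the smallest adjusted p. NIPBL, WAPL, TOP2B, CTCF, HDAC8, SGO1, SMC5, AURKA and the named cell type markers were named outside that rule after their values were seen. The genes and lists were chosen with earlier results of these data known.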

Additional observations from a re-analysis of the deposited data

Results flagged for a closer look

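The share of NCAPG in the summed CPM per kilobase of NCAPG and NCAPG2 was 62.1% in week 0 replicate 4, against 54.6% to 56.3% in the other 4 week 0 libraries. The gap to the nearest of them was 0.77 of the group's range, above Dixon's 95% critical value for 5 samples. Of 30 gene groups and 18 pair-share groups checked this was the 1 that stood out, and chance gives about 1 in 20. Week 0 replicate 4 is also a library with a high share of ribosomal protein counts (5.2%), whose part in the value was not tested.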

How the results depend on the processing

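Calls were counted again with other scalings, tools, filters and sets of libraries. Against a minimum of 2-fold (glmTreat), 7 of the 10 subunit genes were called at week 1 and 5 at week 4, each against week 0, and 0 between the treated times, with 18, 17 and 0 pathway genes and 2193, 1991 and 150 of all tested genes. Leaving out each library in turn gave 10, 9 to 10 and 9 subunit calls. Among all tested genes the calls were then 10981 to 11372, 11015 to 11356 and 6218 to 7308.

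For STAG2 at week 4 against week 0 the log2 fold change was called at 0.19 with upper-quartile scaling, 0.14 with a 5 CPM filter, 0.14 with a replicate block, 0.19 in the 13 libraries without gene length and 0.18 without week 0 replicate 6, and was -0.13 after gene length correction. That correction also turned MAU2 to -0.027 (adjusted p = 0.64) and TOP2B to -0.22 at week 4 against week 0. The causes were not tested.

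Same-numbered libraries did not deviate together (correlations of -0.038 to 0.067), so no pairing by number was seen. This does not settle whether same-numbered libraries share a source. With the replicate block, the 15 called pair ratios had an adjusted p of 0.075 (sign flips over 5 shared numbers against week 0 and 6 between the treated times). With so few sign flips, adjusted over the 18 tests, no ratio could reach an adjusted p under 0.05. The loss of these calls therefore does not show that they depend on pairing. The block values for week 1 and for week 4, each against week 0, and then between the treated times were -0.51, -0.62 and -0.10 for STAG1/STAG2, -0.34, -0.56 and -0.27 for NCAPG/NCAPG2 and -2.21, -1.93 and 0.23 for NCAPH/NCAPH2. Those at week 1 and week 4 against week 0 were 1.42 and 1.38 for SMC2/SMC4 and -0.46 and -0.46 for NCAPD2/NCAPD3, and for SMC1A/SMC3 they were 0.12 at week 1 against week 0 and -0.13 at week 4 against week 1.

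In the 13 libraries without gene length SMC1A/SMC3 at week 1 against week 0 was 0.11 (adjusted exact p = 0.10). A gene length correction of the ratios, chosen after seeing the data, gave -0.024 for STAG1/STAG2, 0.13 for NCAPD2/NCAPD3 (now called) and 0.19 for NCAPH/NCAPH2 at week 4 against week 1. NCAPH/NCAPH2 in that comparison was 0.19 to 0.28 with a library left out (adjusted exact p = 0.011 to 0.065), and its call was lost without week 1 replicate 1, 5 or 6 or week 4 replicate 4, 5 or 6.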
